A study of Arabidopsis thaliana with 6 samples.

Results

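The genes described here encode the heat shock proteins of Arabidopsis thaliana and the heat shock factors that drive their transcription. They were taken by gene identifier from a list of 45, out of 32678 genes measured in each library. By class the list holds 7 HSP90 genes, 12 HSP70 genes, 3 HSP100 genes, 10 small heat shock protein genes, 3 genes for the co-chaperones ROF1 and ROF2 and the heat-associated protein HSA32, and 10 heat shock factor genes. Leaving out the factors, the products work in the cytosol and nucleus (18 genes), the plastid (5), the mitochondrion (6), the endoplasmic reticulum or ER (5) and the peroxisome (1), by textbook localization.

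Polyadenylated RNA of whole seedlings was sequenced in 3 libraries of csu6-2, a mutant allele of COP1 SUPPRESSOR 6 (CSU6), and in 3 libraries of Col-0, the wild-type accession. All seedlings had spent 5 days in white light; no heat treatment is named in the labels. COP1 is an E3 ubiquitin ligase that represses light-driven seedling development, and the study asked how CSU6 acts on the growth-promoting factors PIF4 and PIF5. The labels give neither the locus of CSU6 nor the kind of lesion in csu6-2, so the mutated gene was not checked here, and they do not say whether the libraries came from separate cultures. The p-values measure the spread between these libraries, which may be technical.

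Values are RPKM, in which the reads of a gene are divided by its length and by the total reads of the library. Depth was estimated from the steps between low values at 29.4 to 37.5 M reads (M, mega) per csu6-2 library and 27.4 to 43.1 M per Col-0 library. Expression correlated across genes at r = 0.9906 to 0.9931 for libraries of the same genotype and 0.9833 to 0.9886 across genotypes. Of the markers of the seedling's parts, summed leaf genes (4 genes) reached 16249 to 17164 RPKM in csu6-2 and 13793 to 14557 RPKM in Col-0. The 5 root genes summed to 29.67 to 40.2 RPKM in csu6-2 and 27.47 to 36.85 RPKM in Col-0, and the 3 epidermal genes to 243.67 to 260.61 RPKM in csu6-2 and 230.36 to 244.62 RPKM in Col-0. The 4 seed genes were near 0, with sums of 0.5 to 3.04 RPKM in csu6-2 and 0.89 to 1.51 RPKM in Col-0. The leaf sum did not overlap between genotypes and the other sums did. Of the leaf genes, RBCS1A and LHCB2.1 were higher in every csu6-2 library, whereas CA1 and FNR1 overlapped between genotypes. The part of these markers in the results below was not tested. In whole seedlings, fewer cells of a type and less RNA per cell cannot be told apart.

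Heat shock proteins are chaperones. HSP70 and HSP90 fold and mature client proteins in most compartments of the plant cell, HSP100 proteins such as HSP101 pull proteins out of aggregates, and small heat shock proteins hold unfolding proteins until HSP70 takes them over. Constitutive members serve daily folding, whereas others are nearly silent until heat frees the HSFA1 factors, which then switch on HSFA2, further factors and the chaperone genes by binding heat shock elements, inverted GAA repeats upstream of their targets. In the ER a separate response to unfolded proteins raises BiP, the HSP70 of that compartment, through ER stress elements.

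The 250 bases before the annotated gene start were read from the RefSeq TAIR10.1 genome for all 45 genes, and 5 are printed because they show the range of elements beside the expression results. They are the gene with the largest fall in csu6-2 (HSP70-4), the gene that fell and carries a heat shock element match (HSP15.7), a pair of heat-inducible factors with 3-unit elements (HSFA7A and HSFA2), and the stress form of BiP (BIP3). The windows lie at chr3:3993887-3994136 on the minus strand (HSP70-4), chr5:14968508-14968757 on the plus strand (HSP15.7), chr3:19264891-19265140 on the plus strand (HSFA7A), chr2:11135374-11135623 on the plus strand (HSFA2) and chr1:2931851-2932100 on the minus strand (BIP3). Each is written 5′ to 3′ on the strand of its gene and ends at the base before the gene start. Capitals mark matches to a heat shock element, or in BIP3 to an ER stress element.
HSP70-4: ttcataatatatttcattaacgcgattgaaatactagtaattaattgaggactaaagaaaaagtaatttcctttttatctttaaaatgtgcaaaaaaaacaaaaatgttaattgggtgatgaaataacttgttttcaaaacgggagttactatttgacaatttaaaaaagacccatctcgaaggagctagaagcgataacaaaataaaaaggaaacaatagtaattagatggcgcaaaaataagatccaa
HSP15.7: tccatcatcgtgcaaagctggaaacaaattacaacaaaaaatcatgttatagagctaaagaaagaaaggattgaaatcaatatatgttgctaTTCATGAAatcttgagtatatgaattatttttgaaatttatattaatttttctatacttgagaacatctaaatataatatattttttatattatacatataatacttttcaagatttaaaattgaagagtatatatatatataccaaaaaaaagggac
HSFA7A: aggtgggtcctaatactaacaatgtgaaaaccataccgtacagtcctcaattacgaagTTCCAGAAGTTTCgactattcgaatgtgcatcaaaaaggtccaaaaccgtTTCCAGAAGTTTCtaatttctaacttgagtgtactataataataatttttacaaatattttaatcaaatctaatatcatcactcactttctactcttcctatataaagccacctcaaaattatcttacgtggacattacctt
HSFA2: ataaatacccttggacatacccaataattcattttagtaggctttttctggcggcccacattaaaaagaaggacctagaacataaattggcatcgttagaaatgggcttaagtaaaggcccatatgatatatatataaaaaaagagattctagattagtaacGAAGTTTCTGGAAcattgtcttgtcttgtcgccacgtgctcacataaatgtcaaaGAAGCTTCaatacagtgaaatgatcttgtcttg
BIP3: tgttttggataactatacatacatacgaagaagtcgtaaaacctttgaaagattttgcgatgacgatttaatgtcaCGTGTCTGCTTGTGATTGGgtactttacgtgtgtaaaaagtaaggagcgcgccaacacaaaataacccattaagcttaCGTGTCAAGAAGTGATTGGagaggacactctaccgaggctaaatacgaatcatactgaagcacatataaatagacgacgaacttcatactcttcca

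A 2-unit heat shock element (GAANNTTC or TTCNNGAA, each its own reverse complement) was matched in 11 of the 45 windows (24.4%) and in 16.1% of the 27443 protein-coding windows of the same length. A 3-unit element, which is the 2-unit element followed, after NN, by a further GAA or TTC that continues the alternation, so that each match contains overlapping 2-unit matches, was found in HSP17.4, HSP17.6C, HSFA2 and HSFA7A, 4 of 45 (8.89%) against 0.386% of all windows. HSFA7A carried a pair of them, 179 and 129 bases before its start. The ER stress element (CCAAT and CACG spaced by 10 bases, searched on both strands) stood in HSP90.7 and BIP3, 2 of 45 (4.44%) against 0.689% of all windows, and both BIP3 copies lie on the strand opposite to the gene. The G-box (CACGTG), a core bound by PIF and HY5 factors, was present in 7 of 45 windows (15.6%) against 6.49% of all. Among the 6 genes that fell in csu6-2, HSP15.7 had the single 2-unit match, and 0 of the 6 had a 3-unit element or a G-box in this window. At shares of 0.386% and 6.49% over all windows, 0 of 6 genes does not set them apart. The annotated gene start need not be the start of transcription, and elements outside the window were not searched.

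Transcripts of heat shock proteins were lower in csu6-2 than in Col-0 for 6 genes and higher for 0 genes. The 6 that fell were HSP70-4, ROF2, HSP15.7, HSP90.1, HSP90.5 and CPHSC70-2, with log2 changes of -0.60 to -0.35. They come from 4 of the 6 classes and from the cytosol, the peroxisome and the plastid. The comparison used limma on log2(RPKM + 1), a scale that understates changes of genes of low level, with p-values adjusted by the Benjamini-Hochberg method over all 18885 tested genes, and a change was called at an adjusted p under 0.05.

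Of the 45 genes, 35 passed the filter of at least 1 RPKM in 3 or more libraries. The 6 lower genes are 17.1% of these, and 9.38% of all tested genes were called lower. The 0 higher genes stand beside 3.55% of all tested genes called higher, and 0 of the 35 were higher at an unadjusted p under 0.05 either, with 12 lower. No share of all tested genes at that unadjusted threshold is given, so counts at it, here and below, have no background. The limma fit with plain eBayes also called 0 higher. The log2 change was negative for 29 and positive for 6 of the 35, with a median of -0.15, and the median of all tested genes was -0.07. Most changes over all tested genes were negative too, 12318 against 6567 positive. All 3 csu6-2 libraries lay below all 3 Col-0 libraries for 12 of the 35 genes (34.3%; 23% of all tested genes), and 0 of 35 were separated the other way (9.04% of all tested genes), so that 32% of all tested genes were separated in one direction or the other. Under median-of-ratios scaling the calls over all genes shifted to 1066 higher and 1113 lower, so that 51.1% of called genes were lower instead of 72.5%, and 5 of the 35 genes were called lower, with 10 positive and 25 negative changes.

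**Figure D1:**
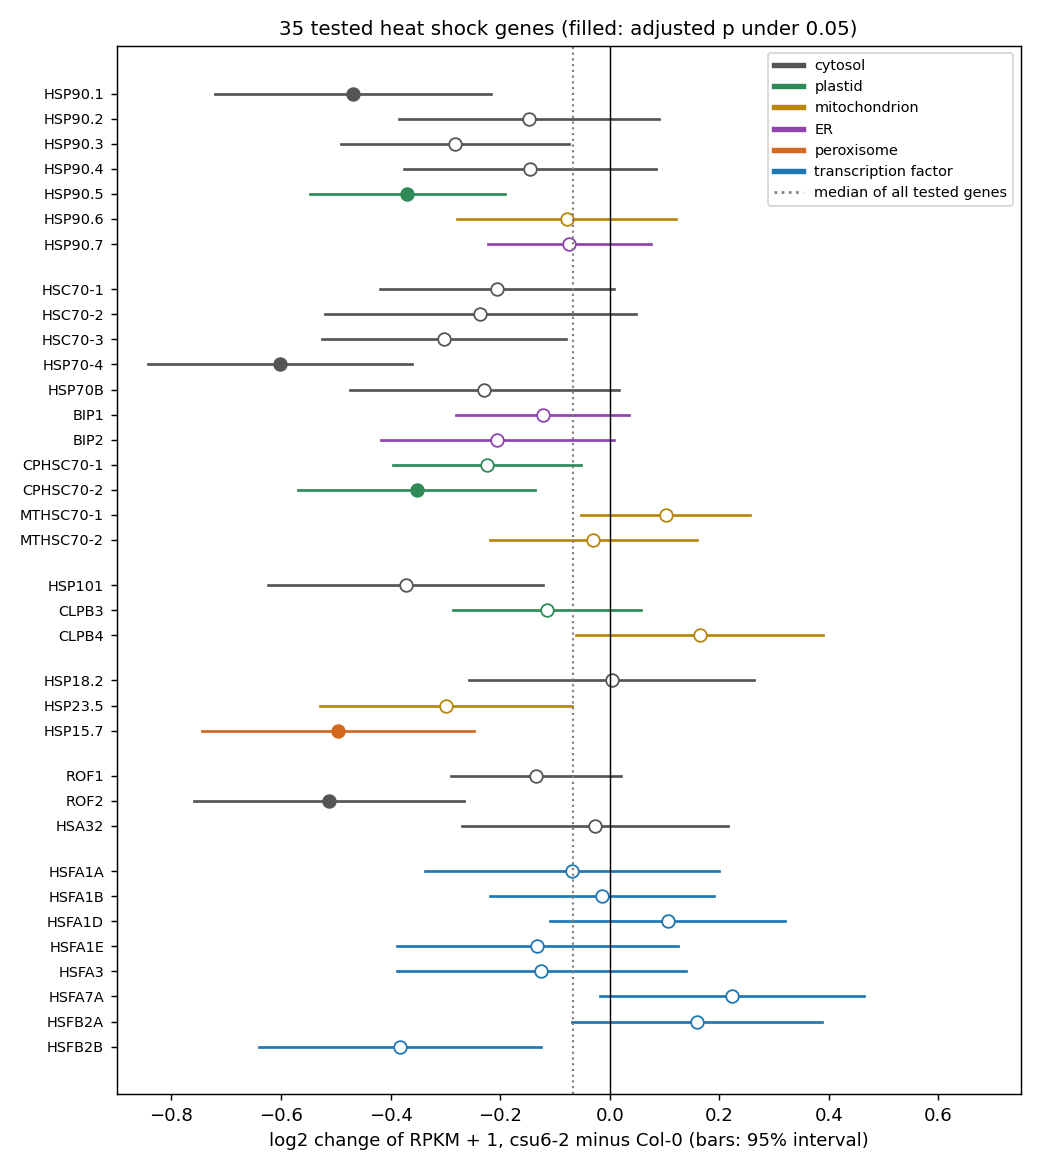
Log2 change of RPKM + 1 (x axis, csu6-2 minus Col-0) of the 35 tested heat shock genes, grouped by class from HSP90 at the top to heat shock factors at the bottom; points are estimates, bars 95% intervals, colours the compartment, and filled points are called. The 6 filled points lie at -0.60 to -0.35, left of the dotted median of all tested genes (-0.07).

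Among cytosolic chaperones the clearest fall was that of HSP70-4 (AT3G12580; chromosome 3, 3991117 to 3993886), a heat-inducible HSP70 that is also present in unstressed plants. Its levels were 15.09, 11.15 and 15.13 RPKM in csu6-2, against 20.63, 20.21 and 23.02 RPKM in Col-0. Every csu6-2 library was below every Col-0 library, and csu6-2 replicate 2 was the lowest. The means were 13.8 ± 2.29 RPKM in csu6-2 and 21.3 ± 1.52 RPKM in Col-0 (SD, n = 3 each), and the log2 change was -0.60 (SE 0.11, 95% interval -0.84 to -0.36; limma adjusted p = 0.00429). Leaving out each of the 6 libraries in turn kept the call, with adjusted p of 0.00357 to 0.0153. Its share of the summed RPKM of the 5 cytosolic HSP70 genes was 2.29 ± 0.229% in csu6-2 and 3.03 ± 0.194% in Col-0 (SD, n = 3 each), without overlap between libraries.

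HSC70-1 (AT5G02500; chromosome 5, 553745 to 556623), the main constitutive HSP70 of the cytosol, made up 80.6 ± 0.533% of that sum in csu6-2 and 79.0 ± 1.47% in Col-0. It was also the most abundant transcript of all 45 genes, with 561.05, 414.89 and 480.8 RPKM in csu6-2 and 576.55, 536.8 and 554.99 RPKM in Col-0. The first csu6-2 library fell inside the Col-0 range and the other two lay below it. The log2 change of -0.21 (SE 0.10, 95% interval -0.42 to 0.01) did not pass (limma adjusted p = 0.197). The other constitutive copies HSC70-2 and HSC70-3 had log2 changes of -0.24 and -0.30 (limma adjusted p = 0.264 and 0.073). HSC70-3 shares 13.3% of its 100-base windows with AT3G09430, an overlapping gene on the other strand. That gene averaged 2.38 RPKM in csu6-2 and 2.51 RPKM in Col-0. A further overlapping gene, AT3G02205 on the same strand, has no value in the deposited data. HSP70B, a copy known as strongly heat-induced, stood at 1.97 to 2.12 RPKM in csu6-2 and 2.48 to 2.65 RPKM in Col-0, separate ranges but without a call (log2 change -0.23, adjusted p = 0.21).

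HSP90.1 (AT5G52640; chromosome 5, 21352557 to 21355147), the heat-inducible HSP90 of the cytosol, had 4.31, 3.95 and 4.83 RPKM in csu6-2, against 6.75, 5.43 and 7.15 RPKM in Col-0. The 2 groups of libraries did not overlap. The means of 4.36 ± 0.442 RPKM in csu6-2 and 6.44 ± 0.900 RPKM in Col-0 (SD, n = 3 each) gave a log2 change of -0.47 (SE 0.12, 95% interval -0.72 to -0.22; limma adjusted p = 0.0187). The call was lost without Col-0 replicate 1 (adjusted p = 0.0527), without csu6-2 replicate 2 (0.0798) or without the third Col-0 library (0.0664). Its constitutive relatives HSP90.2, HSP90.3 and HSP90.4, which lie side by side on chromosome 5, were not called, with log2 changes of -0.15, -0.28 and -0.15 (adjusted p = 0.413, 0.0736 and 0.406). HSP90.3 ran at 101.56, 80.04 and 77.1 RPKM in csu6-2 and at 100.02, 107.56 and 105.5 RPKM in Col-0, with csu6-2 replicate 1 again inside the Col-0 range. These 3 copies share 5.36 to 10.8% of their 100-base windows with other genes, so their reads may be split between them.

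ROF2 (AT5G48570, chromosome 5, 19690461 to 19693845), also called FKBP65, is a heat-induced peptidyl-prolyl isomerase that acts on HSFA2-driven transcription. It was at 3.73, 3.30 and 4.23 RPKM in csu6-2, against 5.17, 6.32 and 5.84 RPKM in Col-0. All csu6-2 libraries were below all Col-0 libraries, and the mean was 3.75 ± 0.465 RPKM in csu6-2 and 5.78 ± 0.578 RPKM in Col-0 (SD, n = 3 each). The log2 change was -0.51 (SE 0.11, 95% interval -0.76 to -0.27; limma adjusted p = 0.0107), and leaving out Col-0 replicate 2 ended the call (0.0582). ROF1 (AT3G25230; chromosome 3, 9188096 to 9191630), the paralog expressed without heat, was more than an order of magnitude more abundant. It had 64.99, 59.93 and 64.96 RPKM in csu6-2 and 67.77, 73.71 and 67.24 RPKM in Col-0. The ranges did not overlap, but the log2 change of -0.13 (SE 0.07) did not pass (limma adjusted p = 0.25). HSA32, which prolongs acquired thermotolerance, was at 4.10 ± 0.488 RPKM in csu6-2 and 4.19 ± 0.315 RPKM in Col-0 (log2 change -0.03, 95% interval -0.27 to 0.22).

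HSP101 (AT1G74310; chromosome 1, 27936508 to 27940369), the cytosolic disaggregase needed for survival of heat, was close to the threshold. It had 3.29, 2.48 and 2.93 RPKM in csu6-2 and 4.25, 3.87 and 3.98 RPKM in Col-0, without overlap. The log2 change was -0.37 (SE 0.12, 95% interval -0.62 to -0.12; limma adjusted p = 0.0518). It passed at a pseudocount of 5 (adjusted p = 0.0479), with plain eBayes (0.0404), with the replicate block (0.049) and without csu6-2 replicate 1 (0.039). HSP101 overlaps AT1G74300 on the other strand in the annotation, but shares 0.0628% of its 100-base windows with it.

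**Figure D2:**
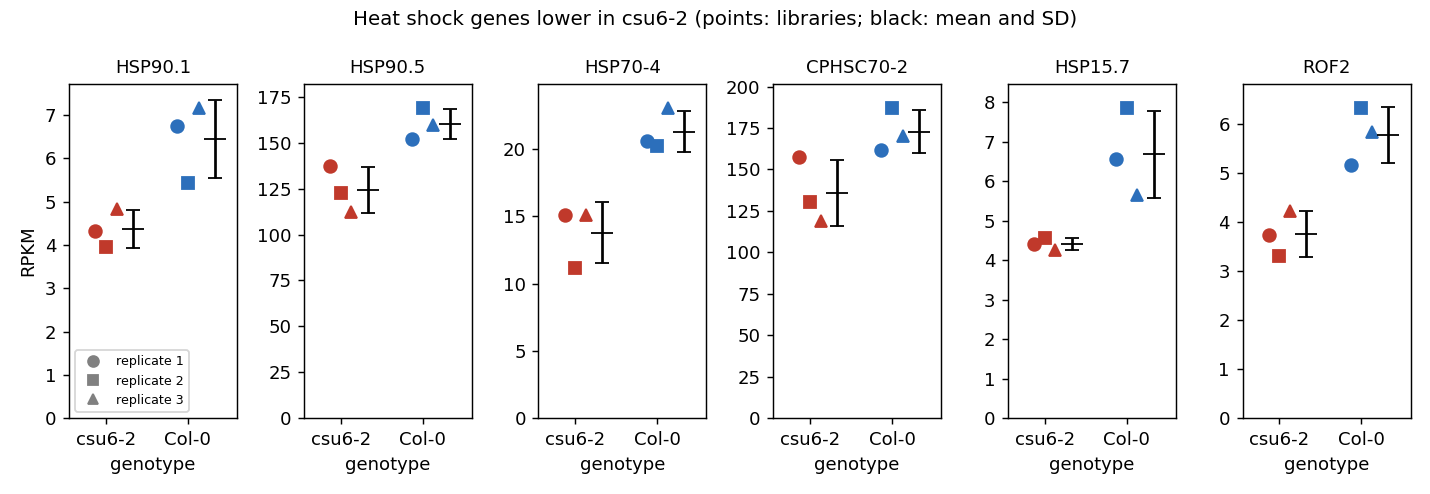
RPKM (y axis, from 0) of the 6 called genes in each csu6-2 library (red, left) and Col-0 library (blue, right); marker shapes give the replicate number, and black marks the mean and SD of 3 libraries. In every panel the csu6-2 points lie below the Col-0 points, narrowly for CPHSC70-2, where csu6-2 replicate 1 (157.72) nearly meets Col-0 replicate 1 (161.45).

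In the plastid 2 of 4 tested chaperones were called lower (50%, beside 9.38% of all tested genes). HSP90.5 (AT2G04030; chromosome 2, 1281754 to 1286144), the chloroplast HSP90 required for chloroplast development and protein import, had 137.34, 122.61 and 112.27 RPKM in csu6-2, against 152.15, 168.64 and 159.74 RPKM in Col-0. The libraries of the 2 genotypes did not overlap. The means were 124.07 ± 12.6 RPKM in csu6-2 and 160.18 ± 8.25 RPKM in Col-0 (SD, n = 3 each), and the log2 change was -0.37 (SE 0.08, 95% interval -0.55 to -0.19; limma adjusted p = 0.0111). The adjusted p was 0.0528 with csu6-2 replicate 2 left out and 0.0527 with Col-0 replicate 2 left out.

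CPHSC70-2 (AT5G49910; chromosome 5, 20303334 to 20306469) is 1 of 2 stromal HSP70s, which take part in import and folding in the chloroplast. It had 157.72, 130.66 and 118.95 RPKM in csu6-2, against 161.45, 186.81 and 169.91 RPKM in Col-0. The groups stayed apart, with csu6-2 replicate 1 just under the lowest Col-0 library. The means of 135.78 ± 19.9 RPKM in csu6-2 and 172.72 ± 12.9 RPKM in Col-0 (SD, n = 3 each) gave a log2 change of -0.35 (SE 0.10, 95% interval -0.57 to -0.14; limma adjusted p = 0.0366). Of the 6 calls it was the one lost in most of the refits. It did not pass when csu6-2 replicate 2 (adjusted p = 0.131) or 3 (0.113), or Col-0 replicate 2 (0.141) or 3 (0.0766), was left out, with no filter (0.0867), under median-of-ratios scaling (0.0893) and with plain eBayes (0.0871).

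The other stromal copy, CPHSC70-1, was at 125.08 to 149.24 RPKM in csu6-2 and 151.85 to 167.28 RPKM in Col-0, separate ranges without a call (log2 change -0.22, adjusted p = 0.082). CLPB3 (AT5G15450; chromosome 5, 5014212 to 5018347), the plastid disaggregase, had 48.27, 41.92 and 49.17 RPKM in csu6-2 and 48.97, 52.8 and 49.01 RPKM in Col-0. Its groups overlapped, and the log2 change of -0.11 (SE 0.08) did not pass (limma adjusted p = 0.384). HSP21, the small heat shock protein of the plastid, was listed at 0 in all 6 libraries, as were 7879 genes in all. A true absence and a failure of counting cannot be told apart for it. Among leaf marker genes, RBCS1A of the Rubisco small subunit averaged 11529 RPKM in csu6-2 and 10012 RPKM in Col-0, and the antenna gene LHCB2.1 averaged 2037 RPKM in csu6-2 and 805 RPKM in Col-0. For both genes every csu6-2 library was above every Col-0 library, but neither was called with the main settings (log2 changes 0.20 and 1.37, limma adjusted p = 0.145 and 0.0522). Of the 4 leaf markers, 1 was called higher at a pseudocount of 5, without a filter and at a filter of 5 RPKM. The same count held under median-of-ratios scaling and with plain eBayes, whereas a pseudocount of 0.1 and the replicate block gave 0. The other two leaf markers, CA1 and FNR1, overlapped between genotypes (log2 changes -0.22 and 0.04).

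The mitochondrial set gave 0 calls among 5 tested genes (limma, with 1 lower and 0 higher at an unadjusted p under 0.05). Over all tested genes 12.9% were called in either direction, so 0 of 5 does not set this organelle apart. MTHSC70-1, an HSP70 of the matrix, averaged 57.8 ± 3.62 RPKM in csu6-2 and 53.7 ± 0.727 RPKM in Col-0 (log2 change 0.10, adjusted p = 0.388), and MTHSC70-2 averaged 27.6 ± 3.06 RPKM in csu6-2 and 28.093 ± 1.499 RPKM in Col-0 (log2 change -0.03, adjusted p = 0.862). MTHSC70-2 shares 11.9% of its 100-base windows with AT4G32208, so its reads may be split. The HSP90.6 and CLPB4 genes, for the mitochondrial HSP90 and disaggregase, had log2 changes of -0.08 and 0.16 (limma adjusted p = 0.631 and 0.332). HSP23.5, a small heat shock protein of the same organelle, was the one with separate ranges, 4.22 to 5.37 RPKM in csu6-2 and 5.93 to 6.57 RPKM in Col-0 (log2 change -0.30, adjusted p = 0.0834).

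The ER set also gave 0 calls, among 3 tested genes (limma, with 0 in either direction at an unadjusted p under 0.05). Beside 12.9% of all tested genes called, 0 of 3 does not set the ER apart either. HSP90.7 (AT4G24190; chromosome 4, 12551552 to 12556058), the ER HSP90 known as SHEPHERD that matures CLAVATA receptors, was the HSP90 of highest mean over the 6 libraries, although HSP90.5 was higher in Col-0. It had 153.91, 138.96 and 150.07 RPKM in csu6-2 and 155.8, 153 and 157.19 RPKM in Col-0. The highest csu6-2 library reached into the Col-0 range, and the log2 change of -0.07 (SE 0.07, 95% interval -0.22 to 0.08) did not pass (limma adjusted p = 0.531). BIP1 and BIP2, the housekeeping BiP genes, had log2 changes of -0.12 and -0.20 (adjusted p = 0.303 and 0.195) and share 8.7% and 9.45% of their 100-base windows with other genes. BIP3, the form induced by ER stress and carrying 2 ER stress element matches, was below the filter with 0.35, 0.35 and 0.26 RPKM in csu6-2 and 0.20, 0.25 and 0.17 RPKM in Col-0. Its csu6-2 libraries were all above its Col-0 libraries, at levels where few reads decide the value, and it was not tested.

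Of the 10 small heat shock proteins in the list, 3 passed the filter. HSP15.7 (AT5G37670; chromosome 5, 14968758 to 14969591), the peroxisomal member, had 4.42, 4.55 and 4.26 RPKM in csu6-2, against 6.56, 7.84 and 5.64 RPKM in Col-0. The csu6-2 libraries were tightly grouped below the more scattered Col-0 libraries. The means were 4.41 ± 0.145 RPKM in csu6-2 and 6.68 ± 1.10 RPKM in Col-0 (SD, n = 3 each), with a log2 change of -0.50 (SE 0.11, 95% interval -0.74 to -0.25; limma adjusted p = 0.0131). Leaving out Col-0 replicate 2 ended the call (adjusted p = 0.0716). HSP18.2, a cytosolic class I member widely used as a heat reporter, was at 5.48 ± 0.438 RPKM in csu6-2 and 5.51 ± 0.967 RPKM in Col-0 (log2 change 0.00, 95% interval -0.26 to 0.26).

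The remaining small heat shock proteins stayed under 1 RPKM in nearly every library and had no test. HSP17.6A averaged 0.63 RPKM in csu6-2 and 0.413 RPKM in Col-0, HSP17.6II 0.323 RPKM in csu6-2 and 0.593 RPKM in Col-0, and HSP17.4 0.293 RPKM in both. HSP17.6C and HSP23.6 were at 0.24 and 0.107 RPKM in csu6-2 and at 0.343 and 0.177 RPKM in Col-0. HSP22.0, the ER member, had 0.06, 0.07 and 0.19 RPKM in csu6-2 and 0.22, 0.29 and 0.30 RPKM in Col-0, ranges that did not overlap. HSP17.4 shares 56.6% of its 100-base windows with AT3G07365, so its value is uncertain. AT3G07365 lies on the other strand and has no value in the deposited data.

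Heat shock factors were not called in either direction (0 of 8 tested, limma). At an unadjusted limma p under 0.05, 1 was lower and 0 were higher, and with plain eBayes 1 was called lower. With 12.9% of all tested genes called, 0 of 8 does not set the factors apart. The 4 HSFA1 genes, the master regulators of the heat response, had log2 changes of -0.07 (HSFA1A), -0.01 (HSFA1B), 0.11 (HSFA1D) and -0.13 (HSFA1E), with adjusted p of 0.513 to 0.942. Under median-of-ratios scaling the sign of HSFA1B turned, to 0.05. Their levels ran between 2.84 and 7.55 RPKM in csu6-2 and between 3.42 and 7.26 RPKM in Col-0. HSFA2, a strongly heat-induced factor that sustains the heat response, was under the filter with 0.66, 0.59 and 0.50 RPKM in csu6-2 and 0.68, 0.73 and 0.79 RPKM in Col-0. Its csu6-2 libraries all lay below its Col-0 libraries, by a narrow margin. HSFB1 was listed at 0 throughout, and whether that is a true absence or a failure of counting cannot be told. HSFA3, a late factor downstream of DREB2A, had a log2 change of -0.12 (adjusted p = 0.552).

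HSFB2B (AT4G11660; chromosome 4, 7042354 to 7044708), a class B factor that acts as a repressor, came nearest to a call. It had 3.41, 2.54 and 2.58 RPKM in csu6-2 and 3.97, 4.02 and 3.97 RPKM in Col-0, with the Col-0 libraries almost identical and all above csu6-2. The log2 change was -0.38 (SE 0.12, 95% interval -0.64 to -0.13; limma adjusted p = 0.0512), and it passed at a pseudocount of 5 (adjusted p = 0.0477), with plain eBayes (0.0434) and without csu6-2 replicate 1 (0.0217). HSFB2B shares 14.4% of its 100-base windows with other genes, 11.7% with AT4G05910. That gene lies on the other strand and has no value in the deposited data. A further gene on the other strand, AT4G11670, averaged 3.57 RPKM in csu6-2 and 4.45 RPKM in Col-0 (log2 change -0.25, adjusted p = 0.15). The sources used here give no strand setting for the counting, so reads from the overlapping stretches cannot be told apart. Its relative HSFB2A (AT5G62020; chromosome 5, 24915807 to 24917643) pointed the other way, with 7.62, 6.79 and 8.46 RPKM in csu6-2 and 7.48, 6.49 and 6.19 RPKM in Col-0. These ranges overlapped, and the log2 change of 0.16 (SE 0.11) did not pass (limma adjusted p = 0.359). HSFA7A, whose promoter printed above holds 2 of the 3-unit elements, had the largest positive log2 change of the 35 tested genes, 0.22 (95% interval -0.02 to 0.47; adjusted p = 0.213), with 6.87 to 8.67 RPKM in csu6-2 and 5.87 to 7.31 RPKM in Col-0.

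By compartment, summed over all members including those under the filter, the plastid set reached 492.57, 433.2 and 405.47 RPKM in csu6-2, against 524.7, 575.53 and 530.51 RPKM in Col-0. The libraries of the 2 genotypes did not overlap, and the ratio of means was 0.816. The cytosolic set had 1014.4, 775.3 and 854.68 RPKM in csu6-2 and 1022.1, 1024.9 and 1023.5 RPKM in Col-0, a ratio of 0.861. The Col-0 sums were nearly equal, and all csu6-2 libraries lay below them, replicate 1 narrowly and the others by more. Median-of-ratios factors were 1.012, 0.9462 and 0.9729 in csu6-2 and 1.034, 1.053 and 1.003 in Col-0. Divided by these factors, the Col-0 cytosolic sums were less equal, and csu6-2 replicate 1 lay inside their range. The plastid sums still did not overlap. The ER set came to 320.59 ± 24.6 RPKM in csu6-2 and 348.01 ± 6.49 RPKM in Col-0, a ratio of 0.921, and the mitochondrial set to 126.98 ± 9.9996 RPKM in csu6-2 and 125.65 ± 5.06 RPKM in Col-0, a ratio of 1.01 (SD, n = 3 each). The differences between compartments were not tested. Median log2 changes of the tested genes were -0.29 in the plastid, -0.23 in the cytosol, -0.12 in the ER and -0.03 in the mitochondrion.

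**Figure D3:**
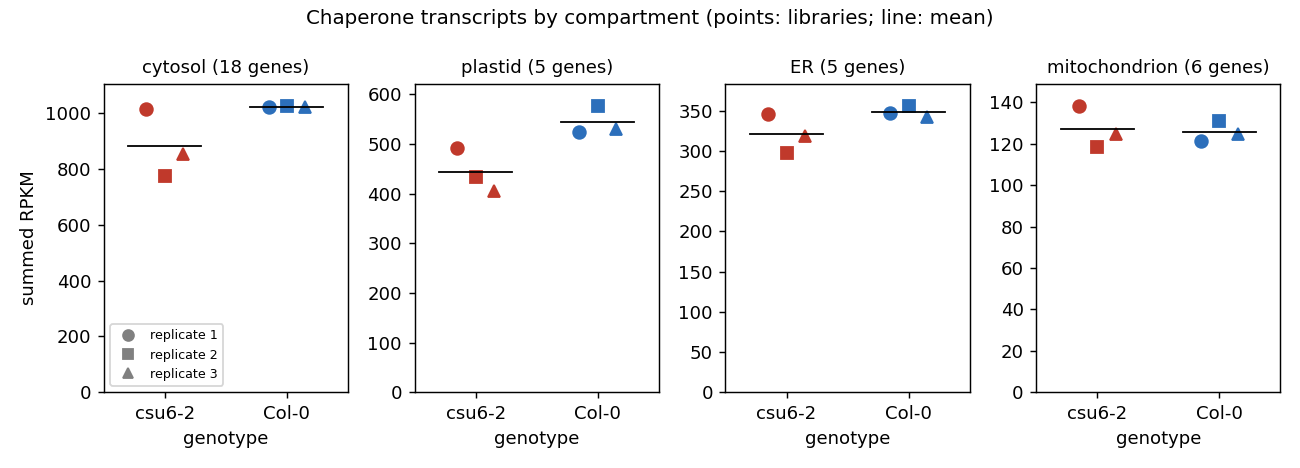
Summed RPKM (y axis, from 0) of the chaperone genes of the cytosol, plastid, ER and mitochondrion in each csu6-2 library (red, left) and Col-0 library (blue, right); lines are means of 3 libraries. The plastid sums are apart (405.47 to 492.57 in csu6-2, 524.7 to 575.53 in Col-0), the cytosolic sum of csu6-2 replicate 1 (1014.4) sits just under Col-0 (1022.1 to 1024.9), and the mitochondrial points overlap.

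By class, summed small heat shock proteins were lowest relative to Col-0, at a ratio of 0.804 (16.4 ± 0.460 RPKM in csu6-2 and 20.5 ± 1.86 RPKM in Col-0, SD, n = 3 each). The fall was not spread evenly over this class. Its 5 cytosolic members summed to 6.97 ± 0.304 RPKM in csu6-2 and 7.15 ± 1.43 RPKM in Col-0. The 2 mitochondrial members summed to 4.96 RPKM in csu6-2 and 6.36 RPKM in Col-0. Peroxisomal HSP15.7 averaged 4.41 RPKM in csu6-2 and 6.68 RPKM in Col-0. The ER member averaged 0.107 RPKM in csu6-2 and 0.27 RPKM in Col-0, and the plastid member was at 0. HSP70 and HSP90 sums stood at ratios of 0.865 and 0.867, ROF1, ROF2 and HSA32 together at 0.895, HSP100 at 0.933 and the heat shock factors at 1.01. All 45 genes together took 0.251, 0.199 and 0.211% of the summed RPKM of the csu6-2 libraries and 0.251, 0.259 and 0.249% of that of the Col-0 libraries.

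The 3 csu6-2 libraries did not behave alike. Relative to the Col-0 mean, the median log2 value of the 35 tested genes was -0.04 in csu6-2 replicate 1, -0.24 in replicate 2 and -0.19 in replicate 3, and over all tested genes it was -0.02, -0.11 and -0.07 in the same libraries. Replicate 1 was the highest csu6-2 library for 22 of the 35 genes (62.9%) and for 49.8% of all tested genes, and replicate 2 the highest for 2 (5.71%) and for 21.1% of all. Without replicate 1, 15 of the 35 genes were called lower. They include the 6 called with all libraries, and HSP90.2, HSP90.3, HSC70-1, HSC70-2, HSC70-3, BIP2, CPHSC70-1, HSP101 and HSFB2B were added, with adjusted p of 0.00758 to 0.0484. In that fit 9.56% of all tested genes were lower. Without Col-0 replicate 2 the count was 2 (HSP70-4 and HSP90.1), and without csu6-2 replicate 2 it was 3 (HSP70-4, HSP15.7 and ROF2), where 4.59% and 5.16% of all tested genes were lower.

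**Figure D4:**
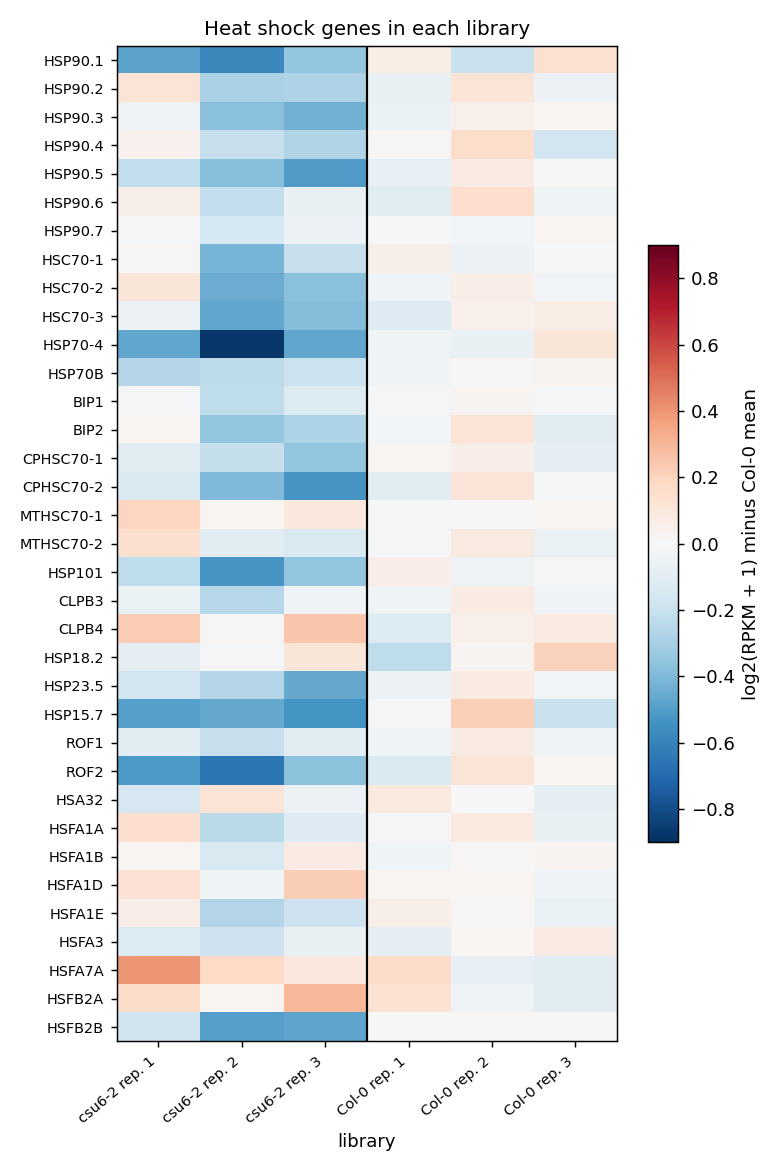
Log2(RPKM + 1) minus the Col-0 mean (colour, blue lower, red higher) of the 35 tested heat shock genes (rows) in the 3 csu6-2 libraries (left of the line) and the 3 Col-0 libraries (right). In csu6-2 replicate 1 most constitutive HSP90 and HSP70 rows are near 0, while HSP90.1, HSP70-4, HSP15.7 and ROF2 are blue in all 3 csu6-2 libraries.

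Other genes of protein folding and the heat response were read from 6 further lists, with 78 genes in all, none of them among the 45. Of 14 further heat shock proteins, 13 were tested and 5 were called lower (38.5%, against 9.38% of all tested genes), all of them small heat shock proteins, and 0 higher (1 higher at an unadjusted p under 0.05). HSP17.6CI (AT1G59860), a cytosolic class I member, fell most, with 0.89, 1.5 and 0.85 RPKM in csu6-2, against 2.82, 3.06 and 3.56 RPKM in Col-0. Its libraries were well separated, and the log2 change was -1.01 (SE 0.15; limma adjusted p = 0.000854). In csu6-2 replicates 1 and 3 it was under 1 RPKM, where few reads decide the value, so it passed the filter through its Col-0 values. HSP18.5 (AT2G19310) had 87.67, 86.44 and 85.85 RPKM in csu6-2, against 103.62, 113.59 and 138.57 RPKM in Col-0, with a log2 change of -0.44 (adjusted p = 0.00973; 0.0555 under median-of-ratios scaling). HSP17.8 (AT1G07400) averaged 1.66 ± 0.282 RPKM in csu6-2 and 3.15 ± 0.633 RPKM in Col-0 (SD, n = 3 each), with a log2 change of -0.64 (limma adjusted p = 0.0104; 0.0527 without csu6-2 replicate 2). HSP17.4B and HSP17.6B were the other two called.

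The chaperonin list, with the CLPC and CLPD ATPases, had 5 of 11 genes called lower (45.5%, against 9.38% of all tested genes). In the same list 0 were called higher, and 0 were higher at an unadjusted p under 0.05. All 5 lower genes encode plastid proteins. They were CPN60A, CPN60B1, CPN60B2 and CPN20, subunits of the chloroplast chaperonin that folds proteins such as Rubisco, and CLPC2, a stromal HSP100 of protein import and breakdown. CPN60B2 had 112.45, 102.49 and 91.88 RPKM in csu6-2, against 134.47, 161.36 and 150.85 RPKM in Col-0, a log2 change of -0.54 (adjusted p = 0.00213). CPN60B1 had 352.53, 335.05 and 302.86 RPKM in csu6-2, against 414.32, 454.95 and 450.33 RPKM in Col-0, a log2 change of -0.41 (adjusted p = 0.00464). Both were separated between genotypes in every library, and so was CLPC2, at 65.4 ± 6.77 RPKM in csu6-2 and 86.1 ± 2.36 RPKM in Col-0 (SD, n = 3 each; log2 change -0.40, limma adjusted p = 0.00681). Each of these 3 calls was kept whichever library was left out. The abundant paralog CLPC1 was at 388.2 ± 19.8 RPKM in csu6-2 and 387.06 ± 5.77 RPKM in Col-0 (log2 change 0.00, 95% interval -0.15 to 0.16), and the mitochondrial chaperonins HSP60 and CPN10 had log2 changes of -0.02 (-0.17 to 0.14) and -0.04 (-0.24 to 0.15).

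Of 18 co-chaperones, all tested, 2 were called lower (11.1%) and 0 higher (1 higher at an unadjusted p under 0.05). Over all tested genes 9.38% were called lower and 3.55% higher, so these counts do not set co-chaperones apart. BAG7, an ER-anchored BiP partner, averaged 76.9 ± 2.22 RPKM in csu6-2 and 93.6 ± 8.95 RPKM in Col-0 (log2 change -0.28, adjusted p = 0.0368), and HOP3, which bridges HSP70 and HSP90, 4.51 ± 0.353 RPKM in csu6-2 and 5.99 ± 0.180 RPKM in Col-0 (log2 change -0.35, adjusted p = 0.0371; SD, n = 3 each, limma). Both calls were lost in 5 of the 6 fits that leave out a library, with adjusted p of up to 0.158 for BAG7 and 0.147 for HOP3. Only the fit without Col-0 replicate 3 kept BAG7 and only that without csu6-2 replicate 1 kept HOP3, and both were also lost under median-of-ratios scaling (0.101 and 0.0655). Of 18 ER folding genes, all tested, 0 were called higher (0 higher and 7 lower at an unadjusted p under 0.05). A single gene was called lower (5.56%, below the 9.38% of all tested genes). It was calnexin 2 (CNX2), a lectin chaperone, at 27.61, 26.15 and 28.14 RPKM in csu6-2, against 34.5, 37.21 and 33.39 RPKM in Col-0 (log2 change -0.35, adjusted p = 0.0091), and it held with any library left out.

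The other heat shock factors (8 of 11 tested) and the heat-associated genes (5 of 6 tested) had 0 calls in limma, with 1 lower and 0 higher in each list at an unadjusted p under 0.05. Beside 12.9% of all tested genes called, 0 calls in lists this short does not set them apart. The most abundant were HSFA4C, with 7.75 ± 0.0794 RPKM in csu6-2 and 8.76 ± 0.564 RPKM in Col-0 (log2 change -0.16, adjusted p = 0.277), and the peroxidase gene APX1, with 428.12 ± 16.8 RPKM in csu6-2 and 426.28 ± 38.6 RPKM in Col-0 (log2 change 0.01, adjusted p = 0.956; SD, n = 3 each, limma). Median log2 changes were -0.28 for the further heat shock proteins, -0.16 for co-chaperones, -0.12 for ER folding genes, -0.07 for heat-associated genes, and -0.05 for both the other heat shock factors and the chaperonin list, beside -0.07 for all tested genes.

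**Figure D5:**
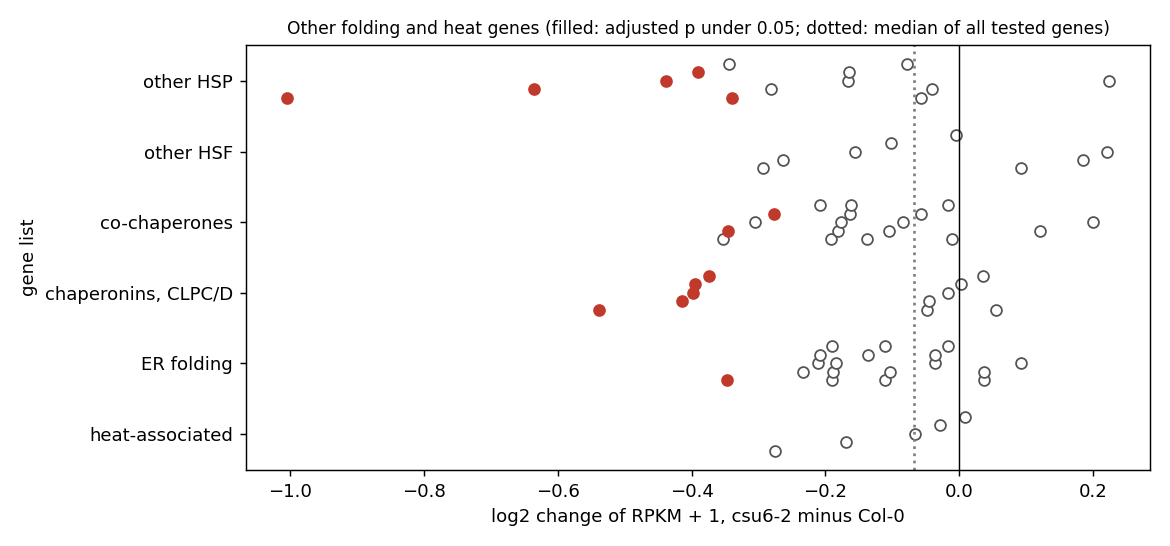
Log2 change of RPKM + 1 (x axis, csu6-2 minus Col-0) of the tested genes in 6 further lists (y axis); points are genes, offset vertically only for legibility, filled red where called, and the dotted line is the median of all tested genes. The 5 filled chaperonin points between -0.54 and -0.37 stand apart from the other 6 of that list. The filled point at -1.01 is HSP17.6CI, which was under 1 RPKM in csu6-2 replicates 1 and 3.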

How the data were processed

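Per the labels' protocols, total RNA of whole seedlings was selected with oligo(dT), primed with random hexamers and sequenced on a NovaSeq. The authors deposited RPKM values rounded to 2 decimals; the unit was read from the values. The submitters' processing notes name HISAT2, edgeR 3.0.8 and the build TAIR10 but do not say what each was used for. The sources used here give no counting program, strand setting or gene lengths. RPKM is scaled to the library's reads, so a few abundant transcripts move all others. Counts were not recovered, so no counting interval is given, and depth is an estimate.

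Log2(RPKM + 1) of the 18885 genes with at least 1 RPKM in 3 or more libraries was compared with limma 3.58.1 in R 4.3.3 (lmFit, eBayes with trend and robust, statmod 1.5.0), two-sided, over all 6 libraries, with Benjamini-Hochberg adjustment and a threshold of 0.05. Positive log2 changes mean higher in csu6-2. Alternatives were pseudocounts of 0.1 and 5, no filter, a filter of 5 RPKM, median-of-ratios scaling, plain eBayes, a replicate block, and each library left out.

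The members and lists were chosen with earlier results of these data known. Per-library values and statistics are given for called members, the most abundant member of each class and members without overlap whose log2 change was at least 0.3 in size; for lists, for up to 3 called genes of lowest adjusted p, or the most abundant gene where none was called. Other genes named beside them, and the printed promoters, were chosen after their values were seen.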

Additional observations from a re-analysis of the deposited data

How the results depend on the processing

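Each count above was recomputed with 1 choice changed. The count of heat shock genes called lower was 5 to 8 under the 7 alternatives that keep all libraries and 2 to 15 with 1 library left out, and the count called higher was 0 in every fit. The share of all tested genes called lower moved too. It was 5.07 to 11.9% under the 7 alternatives and 4.59 to 9.56% with 1 library left out. Over all genes, 389 to 1066 were called higher in these fits. Without a filter, under median-of-ratios scaling and with plain eBayes the HSP70 and plastid counts were each 1. HSP100 had 1 gene lower at a pseudocount of 5, with the replicate block and with plain eBayes, and the heat shock factors had 1 at a pseudocount of 5 and with plain eBayes. The further heat shock proteins had 3 at a filter of 5 RPKM, co-chaperones 0 without a filter and under median-of-ratios scaling, and the chaperonin list 3 under median-of-ratios scaling. With each library left out in turn the counts lower were 0 to 4 for HSP90, 1 to 7 for HSP70, 0 to 1 for HSP100, small heat shock proteins, ROF1 with ROF2 and HSA32, and heat shock factors, 0 to 3 for the plastid, 3 to 5 for further heat shock proteins, 0 to 1 for co-chaperones and 1 to 2 for ER folding genes.

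Signs turned for genes near 0 that were never called. Under median-of-ratios scaling the log2 changes became 0.0022 (HSP90.7), 0.044 (MTHSC70-2), 0.0356 (HSA32) and 0.0525 (HSFA1B). With 1 library left out they ran from -0.1158 to 0.0246 for MTHSC70-2, -0.111 to 0.1056 for HSP18.2, -0.1004 to 0.0345 for HSA32, -0.1784 to 0.0171 for HSFA1A, -0.059 to 0.0472 for HSFA1B and -0.0361 to 0.0822 for APX1. The cause was not tested. No class or compartment sum ratio moved beyond its error under median-of-ratios scaling, although the cytosolic sums of the genotypes then overlapped. That error came from the SD between libraries, which leaving out 1 library cannot exceed. The fits with 1 library left out therefore cannot decide how stable the ratios are.

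The replicate numbers do not mark shared samples in the labels, and deviations of same-numbered libraries correlated at 0.204, 0.051 and 0.221, with csu6-2 replicate 2 closest to Col-0 replicate 3 (0.101). With the replicate block 8 heat shock genes were called lower, CPHSC70-1 (adjusted p = 0.0301) and HSP101 (0.049) in addition to the 6, and 813 genes were higher and 2156 lower in all.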
